A study of Mus musculus with 18 samples.

Results

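The comparison described here sets the first of the study's Gstt1 hairpins, Gstt1 shRNA 1, against the non-targeting (NT) control in each of 6 mouse lines of pancreatic ductal adenocarcinoma (PDAC). It holds 12 of the series' 18 RNA-seq libraries, chosen by their labels alone: every library labelled Gstt1 shRNA 1, and an NT control of the same cell line. The lines were derived from spontaneous metastases, 42-3 and 6-2 in the lung and 42-2, G45-2, 6-3 and 13-2 in the liver. Lines 42-3 and 42-2 have more than 1 control in the series, and that of the same library code was taken. In the 6-3 and 13-2 pairs the control and the shRNA 1 library carry different library codes.

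Both libraries of line 42-3 have the genotype label SIRT6F/F/p48-Cre/p53F/+KrasL/+, those of lines 6-2, 42-2, G45-2 and 6-3 have SIRT6F/Fp48+/Tp53F/+KrasL/+, and those of 13-2 have p48+/Tp53F/+KrasL/+. By these labels, controls and shRNA 1 libraries of a line share the floxed Trp53 allele, the KrasL allele and the p48 allele. By the same labels, 5 of the 6 lines have floxed Sirt6 in both libraries. In mouse models of this cancer the p48 promoter drives Cre in the developing pancreas. In every library the cells had been infected with lentivirus in the presence of polybrene, kept in puromycin for 48 h and collected once they had been split. Each line gave 1 control and 1 shRNA 1 library, so a pair is the unit of replication, and the spread between pairs holds the differences between lines together with those between infections. Nothing in the labels says that a line was infected more than once for these 12 libraries.

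Gstt1 (ENSMUSG00000001663) encodes a theta-class glutathione S-transferase, an enzyme that joins the tripeptide glutathione to reactive, electrophilic compounds so that they can be removed. Its neighbours Gstt2, Gstt3 and Gstt4 encode enzymes of the same class. A short hairpin RNA is cut in the cell to a small interfering RNA that leads to destruction of the matching messenger, and an NT hairpin passes through the same steps without a designed target.

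Read totals, recovered from the deposited CPM values (reads of a gene scaled to the library's total), ran from 12583511 to 25552912 per library, so that 3 reads stood at 0.117 to 0.238 CPM. Before any effect of the hairpin is read, the libraries of a pair have to come from the same line, and transcripts that mark a line did not always match. The transcripts compared were Ddx3y, Eif2s3y, Kdm5d and Uty of the Y chromosome, the X-inactivation RNA Xist, and the neighbouring tumour suppressors Cdkn2a and Cdkn2b. A transcript was counted as differing where it reached 10 CPM in 1 library of the pair and lay at least 10-fold lower in the other. By this count 5 of 7 differed in the 42-3 pair, 6 in 6-2, 2 in 42-2, 2 in 13-2, 1 in G45-2 (Kdm5d, 29.8 and 0 CPM, while the other 3 Y-linked transcripts were present in both libraries) and 0 in 6-3. In 42-2 and 13-2 the 2 were the neighbours Cdkn2a and Cdkn2b, which were lower in 6 of 6 pairs. The Y-linked transcripts and Xist lay below 10 CPM in both libraries of these pairs and could not be counted. Pairs with 2 or more differing are called unmatched below, a limit set after the values were seen. Values of all lines are listed below in the order 42-3, 6-2, 42-2, G45-2, 6-3 and 13-2. Ddx3y, an RNA helicase gene, stood at 222, 216, 3.46, 139.6, 48.9 and 0.0723 CPM in the controls and 0, 1.08, 0, 127, 109 and 0.0706 CPM in the shRNA 1 libraries, which is 21 reads in the 6-2 library and 0 in the 42-3 library labelled shRNA 1. Xist stood at 0.0736 CPM in the control of 42-3 and 197 CPM in the library labelled shRNA 1. Cdkn2b, which encodes the CDK4 and CDK6 inhibitor p15, stood at 191, 238, 175, 229, 104 and 211 CPM in the controls and 31.5, 0, 8.43, 105, 40.3 and 0.0706 CPM in the shRNA 1 libraries. The lowest 2 of these values lay in the 6-2 and 13-2 libraries labelled shRNA 1, at or below the level of 3 reads, and the 2 groups overlapped only at 104 and 105 CPM.

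Over the 13042 genes tested, the G45-2 and 6-3 libraries of shRNA 1 correlated best with their own control (Pearson's r on log2(CPM + 1) across genes, 0.911 and 0.928), whereas those of 42-3, 6-2, 42-2 and 13-2 were closer to the G45-2 control (r = 0.865, 0.869, 0.874 and 0.897) than to their own (0.839, 0.776, 0.768 and 0.877). The G45-2 library of shRNA 1 had nearly the same r with the 42-3 control (0.9101) as with its own. The G45-2 control was the nearest control for every shRNA 1 library but that of 6-3, so nearness to it says little about origin. The 6-2 and 42-2 libraries labelled shRNA 1 had r = 0.919 with each other. These correlations share genes and processing and are descriptions. The share of genes that differed at least 2-fold within a pair was 34.7% in 42-3, 47.1% in 6-2, 44.8% in 42-2, 20.1% in G45-2, 18.5% in 6-3 and 25.8% in 13-2. A different origin of the cells and an effect of the hairpin cannot be told apart in the 42-3, 6-2, 42-2 and 13-2 pairs. Libraries from these 4 lines are therefore called by their labels, and values for the G45-2 and 6-3 pairs alone are given where they lie well away from those of all 6 pairs.

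**Figure D1:**
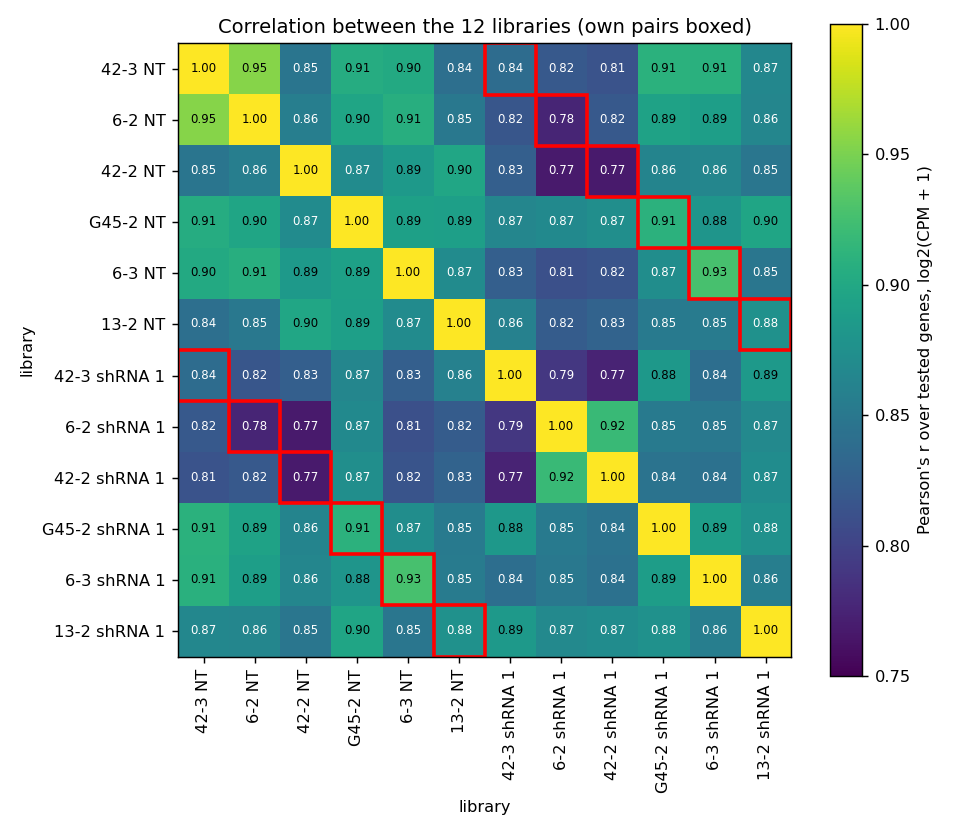
Pearson's r between the log2(CPM + 1) values of each pair of the 12 libraries over the 13042 tested genes, with rows and columns giving the line and the label and red boxes marking the 6 own pairs. Own pairs of G45-2 and 6-3 are at 0.911 and 0.928, while those of 6-2 and 42-2 are at 0.776 and 0.768, below the correlations of most unrelated libraries.

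The first question was how far shRNA 1 lowered its target. The level of Gstt1 was 37.6, 52.5, 2.67, 43.8, 25.4 and 24.3 CPM in the controls and 0.352, 0.358, 0.373, 23.9, 19.2 and 0.283 CPM in the shRNA 1 libraries. Every shRNA 1 library lay below its own control, and the groups overlapped because the 42-2 control was itself low and the G45-2 and 6-3 shRNA 1 libraries stayed high. As a share of the own control, Gstt1 was at 0.938% in 42-3 (9 reads against 510, exact 95% counting interval 0.426% to 1.79%), 0.683% in 6-2 (7 reads, 0.274% to 1.41%) and 1.16% in 13-2 (4 reads, 0.315% to 3.01%). It was at 14.0% in 42-2 (5 reads against 54, 4.37% to 34.7%), 54.5% in G45-2 (449 reads against 761, 48.4% to 61.3%) and 75.4% in 6-3 (241 reads against 373, 63.8% to 88.8%). Intervals of the G45-2 and 6-3 pairs did not reach those of any other pair. They cover counting error only.

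The mean difference of Gstt1, shRNA 1 minus own control on the log2(CPM + 1) scale, was -2.85 ± 2.20 (SD, n = 6 pairs). It was lower in 6 of 6 pairs, and a two-sided exact permutation test that flips the signs of pairs gave p = 0.03125, the smallest that 6 pairs allow. In the G45-2 and 6-3 pairs alone the mean difference was -0.62. In limma's paired fit across all genes the same difference had an SE of 0.73 and an adjusted p of 0.249, which did not pass 0.05. The libraries of shRNA 2, a hairpin of the same gene set against the same controls, held 5.15 CPM of Gstt1 in G45-2 and 0.250 CPM in 6-3.

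Of the other theta-class genes, Gstt3 stood at 19.5, 27.8, 2.82, 43.9, 7.43 and 22.7 CPM in the controls and 0, 8.86, 9.70, 8.14, 3.50 and 0.283 CPM in the shRNA 1 libraries. It was lower in 5 of 6 pairs and higher in 42-2, with a mean difference of -1.97 (SE 0.73, limma adjusted p = 0.335). Gstt2 was at 0.750 to 14.98 CPM (median 1.92) in controls and 0 to 3.10 CPM (median 0.818) in shRNA 1 libraries and differed by -1.16 (SE 0.56, limma adjusted p = 0.414). Gstt4 did not pass the filter on low values. Reads shared by such close relatives make their separate levels uncertain, since the counting rule was not given in the sources used here.

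**Figure D2:**
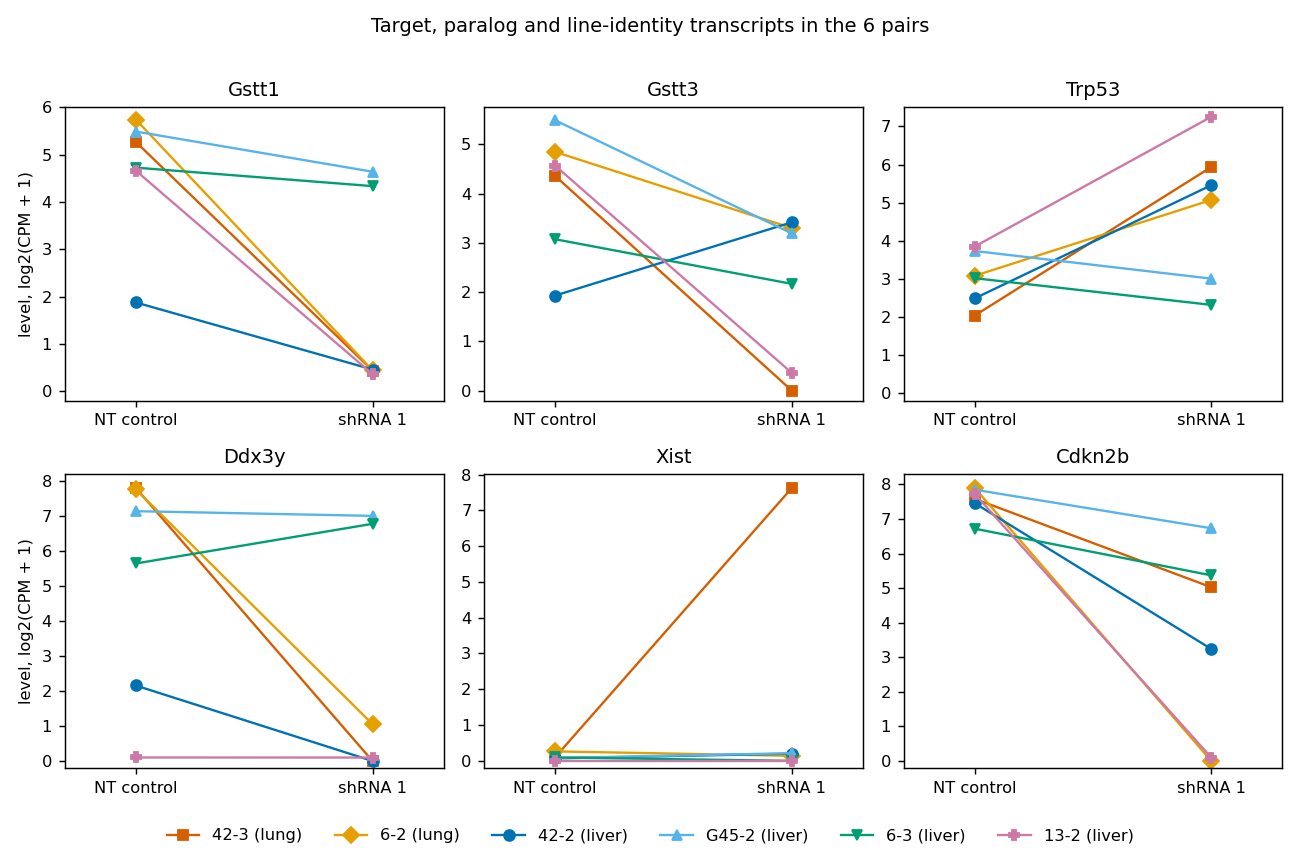
Level of 6 transcripts as log2(CPM + 1) in the NT control (left of each panel) and the shRNA 1 library (right), each line joining the pair of 1 cell line. Gstt1 goes below 0.4 CPM in 4 pairs and stays at 23.9 and 19.2 CPM in G45-2 and 6-3, and the same 4 pairs have higher Trp53 in the library labelled shRNA 1.

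The next question was which other genes differed in the same way in all lines. None of the 13042 genes passed an adjusted p of 0.05 in limma's fit with the pair as a block (0%), and 1681 (12.9%) had an unadjusted p under 0.05, 722 of them higher (5.54%) and 959 lower (7.35%). edgeR's quasi-likelihood test on the recovered reads called none either, and 1407 genes (10.8%) had an unadjusted p under 0.05 there. Genes higher in 6 of 6 pairs numbered 363 (2.78%) and genes lower in 6 of 6 numbered 504 (3.86%). At least 2-fold in every pair, 2 genes were higher (0.0153%) and 19 lower (0.146%). The 2 groups did not overlap for 70 genes that were higher (0.537%) and 64 that were lower (0.491%). Without the 42-3 pair, limma called 44 of 12805 genes, 34 higher (0.266%) and 10 lower (0.0781%), and leaving out any other pair gave 0. The 3 pairs of library code CFa8 (42-3, 6-2 and 42-2), all with unmatched line transcripts, gave 218 calls among 12173 genes, 37 higher (0.304%) and 181 lower (1.49%). Genes named below are therefore given as values with their direction in the 6 pairs, and their limma adjusted p lay between 0.106 and 0.215 for those of smallest p.

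Among the genes that were lower in every pair, the smallest p belonged to Osgin1 (ENSMUSG00000074063), an oxidative-stress-induced growth inhibitor gene and a target of the antioxidant factor NRF2. It stood at 154, 515, 113, 95.7, 431 and 377 CPM in the controls and 40.2, 104, 35.2, 45.9, 97.7 and 85.1 CPM in the shRNA 1 libraries. The groups overlapped only at the G45-2 control, which lay below the 6-2 and 6-3 libraries labelled shRNA 1. The mean difference was -1.86 (SE 0.23, limma adjusted p = 0.106), and -1.59 in the G45-2 and 6-3 pairs alone. Without the 42-3 pair Osgin1 fell by 1.85 on the log2 scale (limma adjusted p = 0.0446), and over the 21 alternatives tried its adjusted p ranged from 0.0446 to 0.493.

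Arc and Fos are immediate early genes, switched on within minutes of a growth or calcium signal, and Fos encodes a subunit of the AP-1 transcription factor. Fos stood at 25.5, 732, 207, 45.3, 1022 and 918 CPM in the controls and 6.81, 231, 24.6, 11.4, 64.9 and 38.2 CPM in the shRNA 1 libraries, with a difference of -2.81 (SE 0.41, limma adjusted p = 0.148). Controls of 42-3, 42-2 and G45-2 lay below the 6-2 library labelled shRNA 1, so the groups overlapped. Arc stood at 12.9, 25.1, 308, 59.9, 195 and 287 CPM in the controls and 1.37, 5.78, 6.05, 1.81, 15.9 and 15.3 CPM in the shRNA 1 libraries, with a difference of -3.68 (SE 0.46, limma adjusted p = 0.106). The 42-3 control, at 12.9 CPM, was the only control of Arc below an shRNA 1 library. Both genes passed without the 42-3 pair (limma adjusted p = 0.0446 for each), where Arc fell by 3.90 and Fos by 3.02 on the log2 scale. Over the alternatives the adjusted p ranged from 0.0446 to 0.456 for Arc and from 0.0445 to 0.456 for Fos.

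**Figure D3:**
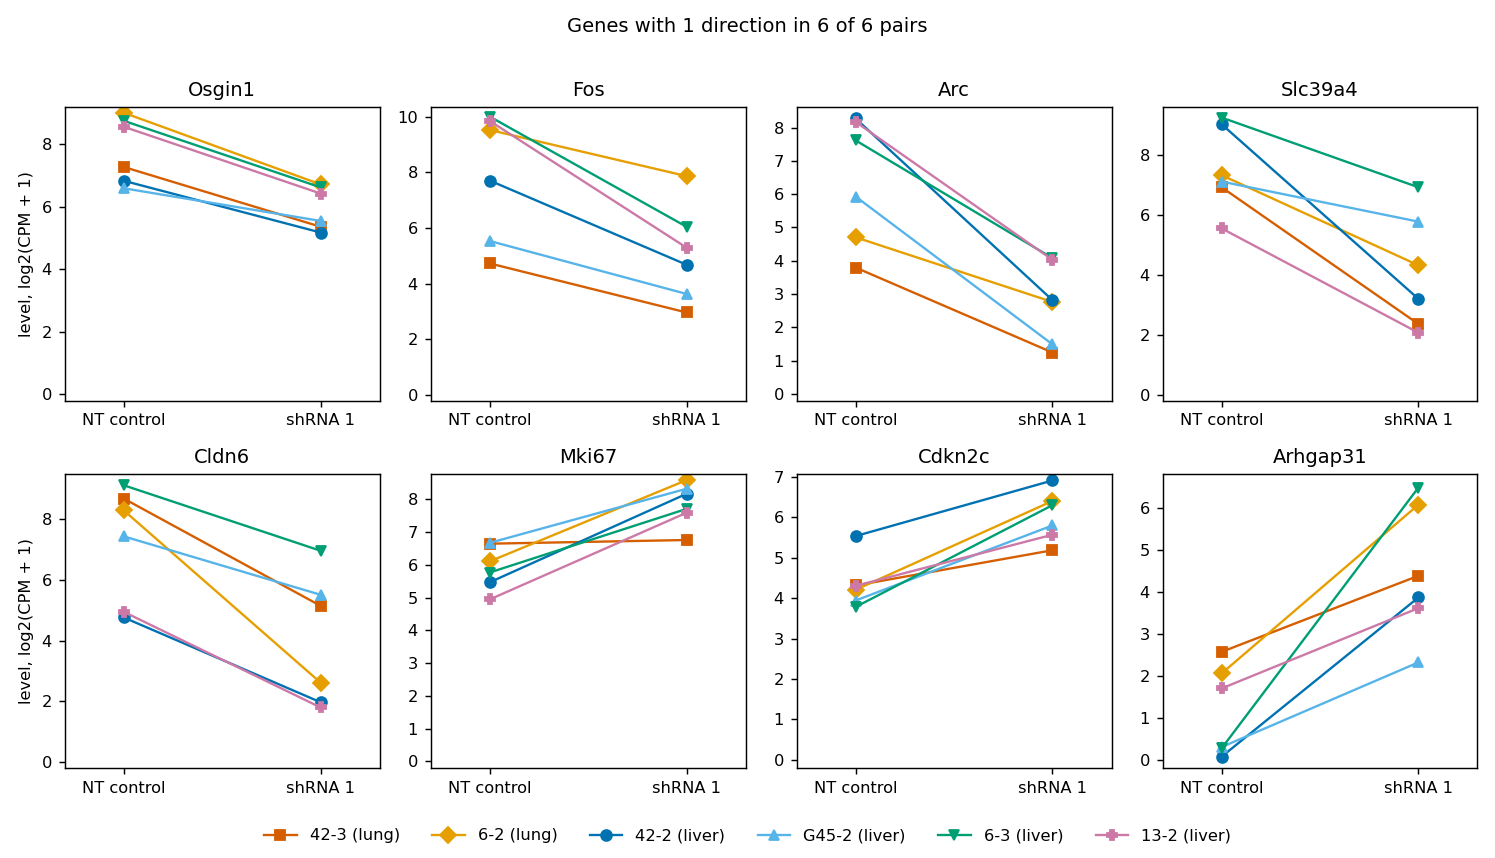
Level of 8 named genes as log2(CPM + 1) in the NT control (left of each panel) and the shRNA 1 library (right), each line joining the pair of 1 cell line. Osgin1, Fos, Arc, Slc39a4 and Cldn6 are lower and Cdkn2c and Arhgap31 higher with shRNA 1 in all 6 pairs, and the 42-3 line of Mki67 is nearly flat, at 98.8 and 107 CPM.

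The list of 21 AP-1 and immediate early genes, which holds Fos, had mostly lower means. Of its members 19 had a lower mean and 2 a higher one, against 51.6% lower and 48.4% higher over all genes. The median difference was -0.89 against -0.02 over all genes tested, and 5 of 21 (23.8%) were lower in 6 of 6 pairs against 3.86% of all genes. None passed the adjusted threshold, and 8 had an unadjusted p under 0.05, all lower, against 7.35% of all genes. The list's median was below 0 in each pair, at -0.90, -1.23, -0.92, -1.001, -1.80 and -0.49. Junb, the AP-1 subunit JunB, was at 422 to 3807 CPM (median 2201) in controls and 226 to 1457 CPM (median 605) in shRNA 1 libraries, a difference of -1.52 (SE 0.33). Ier2, an immediate early nuclear protein, was at 105 to 1112 CPM (median 935) and 70.2 to 399 CPM (median 221), a difference of -1.50 (SE 0.26). Both were lower in 6 of 6 pairs while their groups overlapped.

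The 250 bases before the annotated start of Osgin1, Fos and Cldn6, which encodes a tight-junction claudin, are shown because these genes were lower in all 6 pairs and the letters bound by AP-1 and CREB family factors can be looked up in them. They come from the RefSeq table of build GRCm38.p6, read 5′ to 3′ on the plus strand of each gene, with matches to TGANTCA (AP-1 type, Osgin1) or TGACG (CREB type, Fos and Cldn6) on either strand in capitals.
Osgin1, chr8:119436897-119437146: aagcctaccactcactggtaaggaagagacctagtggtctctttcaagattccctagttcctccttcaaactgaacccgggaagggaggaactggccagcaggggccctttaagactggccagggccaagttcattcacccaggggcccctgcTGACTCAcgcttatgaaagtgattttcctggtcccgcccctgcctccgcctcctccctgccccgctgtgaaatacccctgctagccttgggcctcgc
Fos, chr12:85473640-85473889: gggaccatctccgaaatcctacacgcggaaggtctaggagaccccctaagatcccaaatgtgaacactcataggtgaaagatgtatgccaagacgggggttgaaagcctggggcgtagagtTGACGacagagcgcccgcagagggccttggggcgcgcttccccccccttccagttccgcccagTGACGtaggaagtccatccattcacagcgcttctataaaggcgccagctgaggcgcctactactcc
Cldn6, chr17:23679115-23679364: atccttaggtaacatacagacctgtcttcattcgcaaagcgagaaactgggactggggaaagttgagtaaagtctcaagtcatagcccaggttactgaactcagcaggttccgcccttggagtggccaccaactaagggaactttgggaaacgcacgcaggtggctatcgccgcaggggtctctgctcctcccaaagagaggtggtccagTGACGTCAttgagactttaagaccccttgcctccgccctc
Osgin1 held TGANTCA at -97 from the start, a palindrome read on both strands. Fos held TGACG at -129 and -66. Cldn6 held it at -40 on the plus strand and -37 on the minus strand, where the matches overlap. Of 32851 promoters of this length, 6.75% held TGANTCA and 17.8% held TGACG on either strand. The Osgin1 stretch held no TGACG, and those of Fos and Cldn6 held no TGANTCA. The genes shown are a choice from the 504 (3.86%) that were lower in 6 of 6 pairs. A match is a description of the sequence, and binding was not measured.

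Several of the other named lower genes encode surface or junction proteins. Cldn6 stood at 409.6, 312, 26.1, 172, 556 and 29.9 CPM in the controls and 34.4, 5.12, 2.91, 44.6, 124 and 2.47 CPM in the shRNA 1 libraries, with a difference of -3.21 (SE 0.45, limma adjusted p = 0.148). Controls of 42-2 and 13-2 were low and overlapped with the G45-2, 6-3 and 42-3 libraries of shRNA 1. Igsf5, an immunoglobulin-family adhesion protein of tight junctions, stood at 18.9, 10.8, 5.83, 10.8, 34.6 and 22.1 CPM and 1.29, 0, 0.224, 0.106, 3.10 and 5.58 CPM, with no overlap between the groups and a difference of -2.92 (SE 0.38, limma adjusted p = 0.106). Muc1, a transmembrane mucin of epithelial surfaces, was at 8.97 to 255 CPM (median 37.5) in controls and 0.410 to 55.5 CPM (median 1.29) in shRNA 1 libraries, a difference of -3.81 (SE 0.57), and the 6-3 pair was the highest in both groups. Slc39a4, the zinc importer ZIP4, was at 45.6 to 601 CPM (median 147) and 3.18 to 119 CPM (median 13.5), a difference of -3.42 (SE 0.52). In the G45-2 and 6-3 pairs the differences were -2.04 for Cldn6, -3.27 for Igsf5, -2.83 for Muc1 and -1.83 for Slc39a4, with none past the threshold in these 2 pairs (0 of 11387 genes, 0%, with 1171 or 10.3% at an unadjusted p under 0.05 in limma and 1071 or 9.41% in edgeR).

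Efemp1, which encodes the matrix glycoprotein fibulin-3, differed by -4.51 (SE 0.73), the lowest mean among the genes named for a small p or a large difference in their smallest pair. It was at 27.3 to 978 CPM (median 128) in controls and 0 to 84.7 CPM (median 4.25) in shRNA 1 libraries, with 0 CPM in 6-2 and 84.7 CPM in 6-3 at the ends of the latter group. Ly6c1, a lipid-anchored surface protein, was at 6.15 to 162 CPM (median 47.5) and 0.0512 to 15.4 CPM (median 1.49), a difference of -3.54 (SE 0.62). Aldh1l1, a folate enzyme that oxidises formyl-tetrahydrofolate, was at 1.09 to 29.9 CPM (median 18.5) and 0 to 1.67 CPM (median 0.610), a difference of -3.16 (SE 0.55), and its only small step was in G45-2, where the control held 1.09 CPM. In G45-2 and 6-3 alone the differences were -2.51 for Efemp1, -1.76 for Aldh1l1 and -1.46 for Smtnl2. Smtnl2, a smoothelin-like gene, differed by -2.22 (SE 0.43) and Cdkn2b by -4.13 (SE 0.93). For Cdkn2b the difference in the G45-2 and 6-3 pairs alone was -1.23, against -5.58 in the other 4 pairs.

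**Figure D4:**
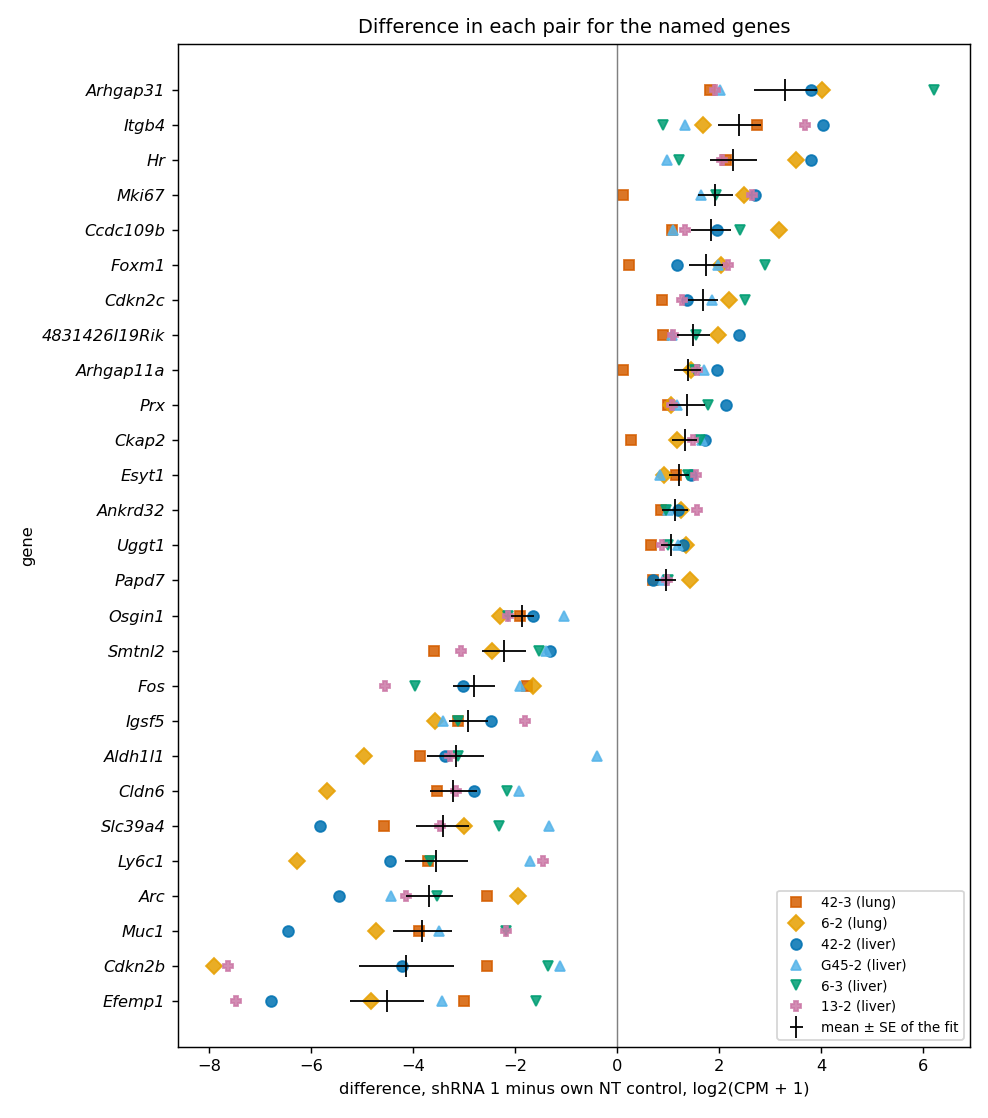
Difference, shRNA 1 minus own NT control on the log2(CPM + 1) scale, in each of the 6 pairs (symbols) for the named genes, with the mean and SE of limma's fit in black. Ankrd32, Uggt1, Papd7 and Esyt1 have the smallest SD over pairs of the plotted genes (0.26 to 0.29), whereas Cdkn2b spreads from -1.12 to -7.90 and Efemp1 from -1.59 to -7.47.

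Of the 15 genes named for a small p or a large difference in their smallest pair, all higher with shRNA 1 in every pair, several are used by dividing cells. Mki67, which encodes the Ki-67 protein of cycling cells, stood at 98.8, 67.7, 43.1, 101, 53.3 and 29.7 CPM in the controls and 107, 382, 286, 318, 207 and 191 CPM in the shRNA 1 libraries. All shRNA 1 libraries lay above all controls, although 42-3 moved by only 0.11, and the mean difference was 1.92 (SE 0.34, limma adjusted p = 0.177). Foxm1, the transcription factor of the G2 and M phase programme, stood at 95.3, 75.1, 69.9, 62.7, 27.7 and 30.4 CPM and 112, 311, 159, 249, 212 and 141 CPM, again without overlap, and differed by 1.75 (SE 0.33, limma adjusted p = 0.196). Ckap2, a spindle-associated protein, was at 32.98 to 75.8 CPM (median 43.6) in controls and 91.3 to 144 CPM (median 115) in shRNA 1 libraries, without overlap, a difference of 1.32 (SE 0.25). Arhgap11a, a GTPase-activating protein of dividing cells, differed by 1.39 (SE 0.26) and was at 40.3 to 120.5 CPM (median 59.2) in controls and 122 to 235 CPM (median 154) in shRNA 1 libraries.

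All 38 tested members of the mitotic spindle and checkpoint list had a higher mean, with a median difference of 1.25. Of them 31 had an unadjusted p under 0.05, all higher, against 5.54% of all genes, and none passed after adjustment. Only 2, Mki67 and Ckap2, were higher in 6 of 6 pairs (5.26%), against 2.78% of all genes. The list's pair medians were -1.06, 0.95, 2.17, 1.24, 1.79 and 2.17, so 42-3 ran the other way. In the DNA replication list 36 of 38 members had a higher mean, 14 with an unadjusted p under 0.05 (all higher), none higher in 6 of 6 pairs, and the median difference was 0.81. Its pair medians were -0.98, 0.66, 1.54, 0.68, 1.22 and 1.08, with 42-3 again the only one below 0. In the G45-2 pair 38 of 38 mitotic and 37 of 38 replication genes were higher, and in the 6-3 pair 38 of each 38, against 5398 and 7520 of all 13042 genes in these pairs, which had the fewest differing line transcripts and the least reduction of Gstt1. Kif20a, a kinesin of the dividing cell's midzone, held 189, 57.96, 57.5, 74.6, 41.1 and 31.7 CPM in the controls and 123, 338, 182, 333, 203 and 158 CPM in the shRNA 1 libraries. Mcm5, a subunit of the replicative helicase, was at 40.9 to 204 CPM (median 97.5) and 108 to 437 CPM (median 261), a difference of 1.34 (SE 0.40), and 2.02 in G45-2 and 6-3 alone.

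Of the 44 genes called without the 42-3 pair, 34 were higher (0.266% of 12805 genes). They held 15 of the 38 mitotic list members and 2 of the 38 replication list members. The pair left out was the only one with both list medians below 0, and no gene passed with all 6 pairs. Among the 34 Mki67 rose by 2.28, Foxm1 by 2.05, Ckap2 by 1.53, Arhgap11a by 1.64, Kif20a by 2.17 and Pole, the catalytic subunit of DNA polymerase epsilon, by 1.73 (log2 scale, limma adjusted p = 0.0446 for each). Cdkn2c, whose product p18 inhibits CDK4 and CDK6, was higher too. It stood at 18.9, 17.4, 45.3, 14.3, 12.7 and 18.7 CPM in the controls and 35.3, 83.4, 119, 54.5, 77.6 and 46.3 CPM in the shRNA 1 libraries, with overlap only between the 42-2 control and the 42-3 library of shRNA 1, and differed by 1.68 (SE 0.29, limma adjusted p = 0.177).

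The other named genes that were higher in every pair have varied functions. Esyt1, which tethers the endoplasmic reticulum to the plasma membrane, stood at 96.5, 93.6, 67.2, 94.99, 110.04 and 60.8 CPM in the controls and 217, 177, 184, 172, 291 and 179 CPM in the shRNA 1 libraries. The groups did not overlap and the difference was 1.22 (SE 0.20, limma adjusted p = 0.177). Itgb4, the beta-4 integrin subunit of hemidesmosomes, was at 1.88 to 102 CPM (median 49.8) and 45.98 to 567 CPM (median 198), a difference of 2.40 (SE 0.43), with the 42-2 control the lowest library. Arhgap31, which switches off the GTPases Cdc42 and Rac1, stood at 4.93, 3.15, 0.0494, 0.230, 0.204 and 2.24 CPM and 19.9, 66.6, 13.6, 3.99, 88.7 and 11.2 CPM. Its controls in 42-2, G45-2 and 6-3 were at or near the level of 3 reads, and the mean difference of 3.30 (SE 0.61) was the highest of the named genes. Arhgap31 and Ccdc109b were the 2 genes at least 2-fold higher in every pair on the log2(CPM + 1) scale.

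Uggt1, which checks the folding of glycoproteins in the endoplasmic reticulum, was at 104 to 193 CPM (median 146) in controls and 209 to 444 CPM (median 301) in shRNA 1 libraries, a difference of 1.06 (SE 0.20). Hr, the nuclear corepressor hairless, differed by 2.28 (SE 0.46) and Ccdc109b, a subunit of the mitochondrial calcium channel, by 1.84 (SE 0.39). Prx, the scaffold protein periaxin, was at 2.92 to 7.73 CPM (median 5.49) in controls and 12.1 to 16.4 CPM (median 14.97) in shRNA 1 libraries without overlap, a difference of 1.37 (SE 0.35). Papd7, a poly(A) polymerase, differed by 0.95 (SE 0.21), Ankrd32 by 1.14 (SE 0.26) and 4831426I19Rik by 1.50 (SE 0.32). In G45-2 and 6-3 alone Itgb4 differed by 1.11 and Hr by 1.09. In the 42-3 pair, where the mitotic list had a median below 0, Esyt1 differed by 1.16, Itgb4 by 2.75 and Arhgap31 by 1.81.

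Lines G45-2 and 6-3 also have an shRNA 2 library, which shares its control with shRNA 1, and the values of Osgin1, Arc, Esyt1 and Cdkn2c, in that order the 2 lower and the 2 higher named genes of smallest p, are set side by side with no test. In G45-2 the control held 95.7, 59.9, 94.99 and 14.3 CPM, the shRNA 1 library 45.9, 1.81, 172 and 54.5 CPM and the shRNA 2 library 39.6, 2.17, 146 and 59.04 CPM. In 6-3 the control held 431, 195, 110.04 and 12.7 CPM, the shRNA 1 library 97.7, 15.9, 291 and 77.6 CPM and the shRNA 2 library 384, 5.66, 73.3 and 17.6 CPM. In G45-2 each gene thus moved the same way with both hairpins. In 6-3 only Arc moved as far with shRNA 2. Osgin1 and Cdkn2c stayed near the control there, and Esyt1 lay below it. Gstt1 in 6-3 was at 19.2 CPM with shRNA 1 and 0.250 CPM with shRNA 2. The cause was not tested.

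The genes around the target's own pathway were examined by list. Of 16 tested glutathione transferases of other classes, 14 had a lower mean and 2 a higher one, with a median difference of -0.94, and 5 had an unadjusted p under 0.05, all lower, against 7.35% of all genes. The pair medians were -0.16, -1.73, -1.14, 0.16, -0.58 and -0.57, so G45-2 was above 0. Gstm4, of the mu class, stood at 9.57, 9.53, 35.8, 13.1, 50.1 and 48.6 CPM in the controls and 6.65, 0, 4.93, 5.64, 1.59 and 3.96 CPM in the shRNA 1 libraries. Its groups did not overlap and its difference was -2.53 (SE 0.54, limma adjusted p = 0.215). Gstm5, of the same class, was lower in 4 pairs and higher in 42-3 and G45-2, with a mean difference of -1.47 (SE 0.59). The genes of glutathione synthesis and reduction had 12 of 17 members lower and a median of -0.30, with pair medians from -0.68 in 42-2 to 0.10 in 6-3. Of 26 NRF2 targets 12 were higher and 14 lower, with a median of -0.02. Osgin1 was the only 1 of them lower in 6 of 6 pairs (3.85%), about the share of all genes (3.86%). Srxn1, the enzyme that repairs peroxiredoxins and another NRF2 target, was at 44.4 to 99.02 CPM (median 56.4) in controls and 93.6 to 136 CPM (median 103) in shRNA 1 libraries and was higher in 5 pairs, all but G45-2, with a mean difference over all 6 of 0.80 (SE 0.25), and 0.51 in G45-2 and 6-3 alone.

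**Figure D5:**
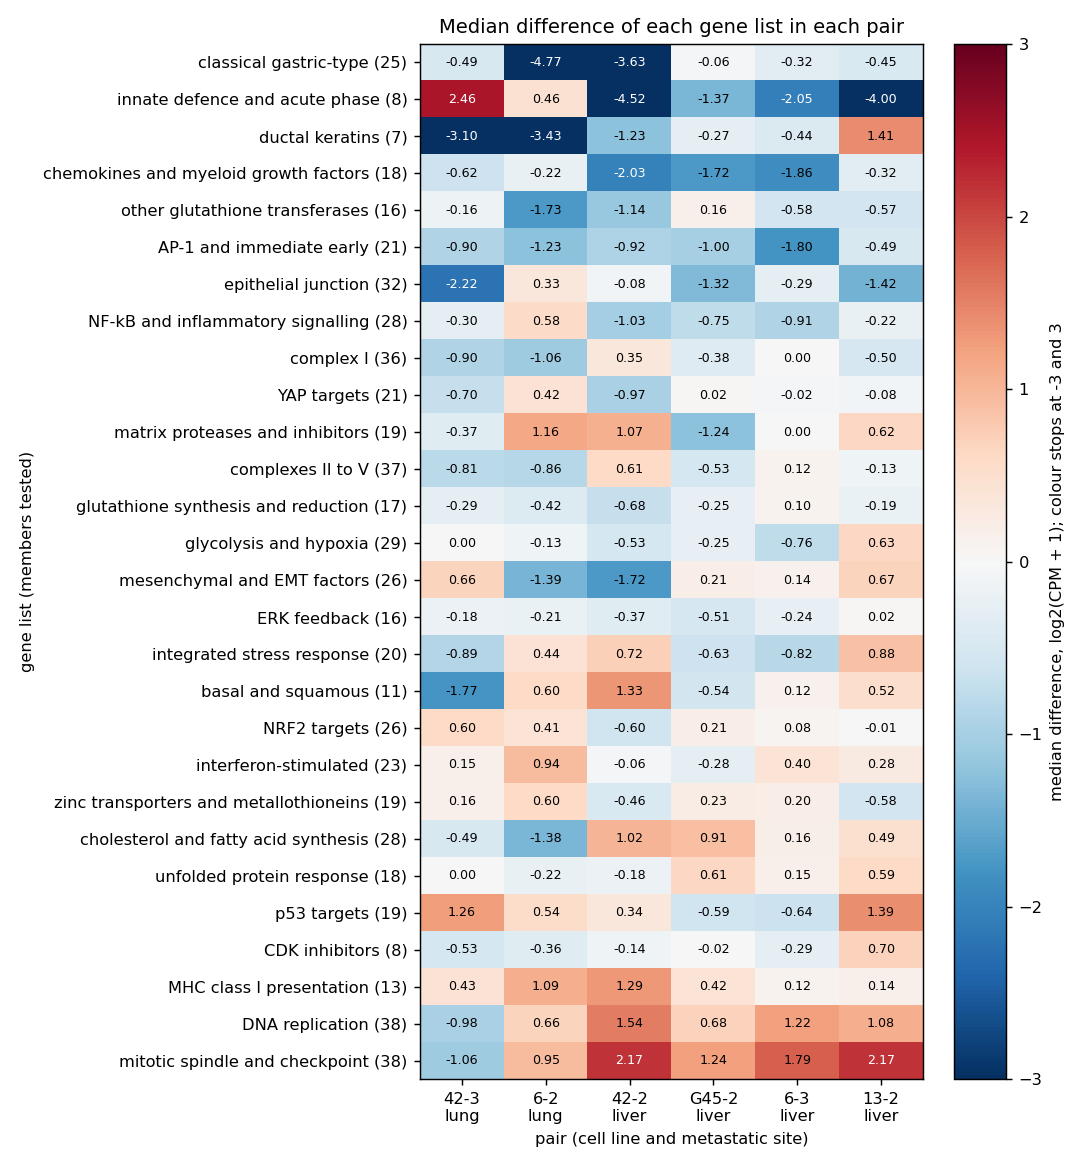
Median difference, shRNA 1 minus own NT control on the log2(CPM + 1) scale, of the tested members of each gene list (rows, number of members in brackets) in each of the 6 pairs (columns). The AP-1 list is below 0 and the MHC class I list above 0 in every pair, and the mitotic list is at -1.06 in 42-3 and at 0.95 to 2.17 in the other pairs.

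Chemokine, NF-kB and innate defence genes had mostly lower means, and only the chemokine list was below 0 in every pair. Of 18 chemokine and myeloid growth factor genes 14 had a lower mean and 4 a higher one, the median difference was -1.25, and the pair medians were -0.62, -0.22, -2.03, -1.72, -1.86 and -0.32. None of the 18 was lower in 6 of 6 pairs, against 3.86% of all genes. Cxcl16, a transmembrane chemokine, was at 22.6 to 273 CPM (median 152) in controls and 7.28 to 110.3 CPM (median 29.8) in shRNA 1 libraries and was lower in 5 pairs, all but 6-2. Csf3, the granulocyte growth factor, stood at 2.28, 20.7, 151, 70.9, 380.01 and 93.6 CPM and 0.470, 134, 16.6, 1.97, 12 and 5.51 CPM, again higher in 6-2 only. In the G45-2 and 6-3 pairs Cxcl16 differed by -2.64 and Csf3 by -4.74, against -1.58 and -2.49 over all 6, and the list's median was -2.32. Of 28 genes of NF-kB and inflammatory signalling 23 had a lower mean, with a median of -0.48. Their pair medians were -0.30, 0.58, -1.03, -0.75, -0.91 and -0.22. Tnip1, an inhibitor of NF-kB signalling that binds A20, stood at 149, 199.7, 225, 175, 189 and 353 CPM in controls and 74.6, 78.6, 75.8, 107, 107 and 131 CPM in shRNA 1 libraries, without overlap, and differed by -1.14 (SE 0.21, limma adjusted p = 0.183). Of the 8 tested innate defence and acute phase genes 7 had a lower mean, with pair medians of 2.46, 0.46, -4.52, -1.37, -2.05 and -4.00. Lbp, which binds bacterial lipopolysaccharide, was the only 1 of them with 1 direction in 6 of 6 pairs (12.5% lower, against 3.86% of all genes). Lbp stood at 10.6, 21.7, 134, 32.8, 147 and 41.2 CPM in controls and 4.93, 0.154, 0.149, 1.60, 19.9 and 2.76 CPM in shRNA 1 libraries, a difference of -3.69 (SE 0.65, limma adjusted p = 0.177). Macrophage markers, 5 of 10 listed in the table, summed to 95.1 to 875 CPM in controls and 27.6 to 226 CPM in shRNA 1 libraries, and the part of other cells in the values was not tested. Ptprc and Csf1r, which define white blood cells and macrophages, were below 1 CPM in all 6 controls and reached 1.67 and 1.91 CPM in the 6-3 library of shRNA 1. Cd14, at 79.7 to 858 CPM in controls and 9.48 to 220.1 CPM in shRNA 1 libraries, made up most of the sum in each library except the 42-2 library labelled shRNA 1, where Itgam was at 22.99 CPM against 0.593 CPM in the control.

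MHC class I genes, whose products show peptides to T cells, had the opposite sign. Of 13 tested members 12 had a higher mean, the median difference was 0.48, and the pair medians were 0.43, 1.09, 1.29, 0.42, 0.12 and 0.14. Tap1, a subunit of the peptide transporter, stood at 1.25, 1.07, 1.78, 1.38, 2.73 and 3.25 CPM in controls and 8.22, 11.7, 17.7, 5.80, 4.13 and 5.16 CPM in shRNA 1 libraries, without overlap, a difference of 1.65 (SE 0.44, limma adjusted p = 0.259), and 0.99 in G45-2 and 6-3 alone. Erap1, which trims the peptides, stood at 26.6, 27.2, 26.8, 36.3, 24.5 and 33.3 CPM and 78.2, 58.98, 41.4, 58.6, 42.1 and 46.6 CPM, also without overlap, a difference of 0.85 (SE 0.25, limma adjusted p = 0.275). Only these 2 of the 13 (15.4%) were higher in 6 of 6 pairs, against 2.78% of all genes.

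Genes of the classical, gastric-type state of PDAC had lower means, but by amounts that depended on the pair. Of 25 tested members 23 had a lower mean and 14 an unadjusted p under 0.05 (all lower, against 7.35% of all genes), the median difference was -1.73, and the pair medians were -0.49, -4.77, -3.63, -0.06, -0.32 and -0.45. The 6-2 and 42-2 pairs stand far below the other 4. Cldn18, a claudin of gastric epithelium, stood at 41.1, 51.05, 535, 315, 481 and 18.1 CPM in controls and 0.196, 0.461, 0.0746, 0.319, 421 and 0.0706 CPM in shRNA 1 libraries. The 6-3 library was at 421 CPM and the other 5 lay below 0.5 CPM, a mean difference of -5.25 (SE 0.96, limma adjusted p = 0.183). Ctse, the protease cathepsin E, was at 4.41 to 483 CPM (median 85.9) and 0 to 251 CPM (median 2.05), a difference of -3.78 (SE 0.89).

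Epithelial genes also had lower means in several pairs. Of 32 epithelial junction genes 24 had a lower mean, with a median of -0.68 and pair medians of -2.22, 0.33, -0.08, -1.32, -0.29 and -1.42. Among 7 ductal keratins 6 had a lower mean, with pair medians of -3.10, -3.43, -1.23, -0.27, -0.44 and 1.41. Krt7 stood at 414, 198, 342, 1984, 1422 and 203 CPM in controls and 0.0391, 320.2, 145, 6.49, 129.7 and 7.49 CPM in shRNA 1 libraries, higher in 6-2 only. Elf3, an epithelial transcription factor, was lower in 6 of 6 pairs, at 34.9 to 188 CPM (median 97.01) and 1.37 to 65.2 CPM (median 41.8), a difference of -1.83 (SE 0.47), and -1.17 in G45-2 and 6-3 alone. The 8 epithelial markers of the labelled cell type were all detected and summed to 2480 to 15185 CPM in controls and 1489 to 7597 CPM in shRNA 1 libraries. Epcam, an epithelial adhesion molecule, stood at 60.5, 27.9, 2.17, 263.6, 5.86 and 9.18 CPM in controls and 0.0391, 24.4, 23.1, 23.1, 31.8 and 0.495 CPM in shRNA 1 libraries, so it was higher in 42-2 and 6-3. Cdh1, E-cadherin, was at 503 and 1.17 CPM in the control and the library labelled shRNA 1 of 42-3, the latter of which still held 470.04 CPM of Krt8, 605 CPM of Krt18 and 368 CPM of Krt19. Fibroblast markers summed to 5.93 to 997 CPM in controls and 44.7 to 3883 CPM in shRNA 1 libraries, the highest in 42-3. There Col3a1, a fibrillar collagen, made up nearly all of the sum, at 0.0736 and 3625 CPM, and Pdgfrb was at 0.442 and 219 CPM, while Col1a1 was at 55.7 and 32.3 CPM, Col1a2 at 0.589 and 0.0391 CPM, and Dcn, Lum and Pdpn were below 0.1 CPM in both libraries. In bulk libraries fewer cells of a type and less RNA per cell cannot be told apart.

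Respiratory chain genes had small differences, mostly with a lower mean. Of 36 complex I genes 34 had a lower mean, with a median of -0.42, 5 were lower in 6 of 6 pairs (13.9%, against 3.86% of all genes), and the pair medians were -0.90, -1.06, 0.35, -0.38, 0.00 and -0.50. Ndufa6, an accessory subunit, stood at 148, 219, 100.1, 76.8, 109 and 101 CPM in controls and 54.98, 40.8, 64.8, 47.9, 72.4 and 55.3 CPM in shRNA 1 libraries, without overlap, a difference of -1.09 (SE 0.28, limma adjusted p = 0.259), and -0.62 in G45-2 and 6-3 alone. Of 37 genes of complexes II to V 31 had a lower mean, with a median of -0.32. In 42-2 both lists were above 0 (0.35 and 0.61). In 6-3 complex I was at 0.00, with 18 of 36 members higher, and complexes II to V were at 0.12.

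Trp53, the tumour suppressor with a floxed allele in the labels of all lines, divided the pairs in the same way as the number of differing line transcripts (2 or more against 0 or 1). Trp53 stood at 3.09, 7.45, 4.60, 12.3, 7.09 and 13.4 CPM in the controls and 60.3, 32.6, 43, 7.02, 3.97 and 152 CPM in the shRNA 1 libraries. It was higher in the 4 libraries labelled shRNA 1 of 42-3, 6-2, 42-2 and 13-2, which also lay outside the range of every control, and lower in G45-2 and 6-3. The 19 tested p53 targets had pair medians of 1.26, 0.54, 0.34, -0.59, -0.64 and 1.39, above 0 in the same 4 pairs and below 0 in the other 2. Cdkn1a and Mdm2, chosen after their values were seen as the best known targets, are given as values. Cdkn1a, the CDK inhibitor p21, stood at 44.6, 51.4, 8.25, 72.1, 135 and 16.4 CPM and 336, 152, 69.8, 33.2, 27.4 and 628 CPM. Mdm2, the ubiquitin ligase of p53, stood at 72.1, 79.5, 48.6, 131, 102 and 97.3 CPM and 250.2, 156, 139, 81.5, 104 and 394 CPM, so that 6-3 hardly differed (0.03). Over all 6 pairs the list's median was 0.18 and Btg2, an antiproliferative target, was its only member with 1 direction in 6 of 6 pairs, at -2.31 (SE 0.55). This is 5.26% of the list, against 3.86% of all genes that were lower in 6 of 6 pairs. Not every target followed the split of Trp53. Pmaip1 differed by -2.29, -6.04, -4.84, 0.16, -2.57 and 1.37, and Gadd45a by -1.54, -1.08, -0.36, -0.66, -0.91 and 0.04. Sirt6, a deacetylase gene floxed in 5 of the lines by their labels, had a like split, at 8.91, 7.65, 5.78, 19.01, 14.99 and 10.9 CPM in controls and 17.6, 17.2, 18.1, 9.52, 11.4 and 19 CPM in shRNA 1 libraries.

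Whether the difference depended on the site of the metastasis was asked with a further term, the difference in the 2 lung lines minus that in the 4 liver lines. It passed for 0 of 13042 genes in limma (0%), with 1367 (10.5%) at an unadjusted p under 0.05, and for 0 in edgeR (1220, 9.35%). The 3 genes of smallest p were the Y-linked Eif2s3y (-7.23) and Uty (-6.49), which were at 0 or 1 read in the shRNA 1 libraries of both lung pairs, and Ildr2 (-7.15), a membrane protein of the immunoglobulin family. Ildr2 stood at 87.7, 86.5, 0, 0, 0.0681 and 0.0723 CPM in the controls and 0, 0, 0, 0.0532, 0.0795 and 5.86 CPM in the shRNA 1 libraries. Without the G45-2 pair 1 gene was called, C3, the central complement component, with a difference between sites of 10.65 (limma adjusted p = 0.00877), and without any other pair none. C3 differed by 3.88 and 5.75 in the lung pairs and by -6.50, -1.17, -5.56 and -5.45 in the liver pairs.

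The remaining lists had medians near that of all genes or pairs of both signs. Medians were -0.33 for YAP targets, -0.33 for matrix proteases and their inhibitors, -0.13 for glycolysis and hypoxia, -0.09 for mesenchymal factors and -0.09 for ERK feedback genes. They were -0.08 for the integrated stress response, -0.02 for basal and squamous genes, -0.01 for interferon-stimulated genes, 0.07 for zinc transporters and metallothioneins, 0.09 for lipid synthesis and 0.15 for the unfolded protein response. Slc39a4 was thus lower in 6 of 6 pairs within a zinc list of which 12 of 19 members had a higher mean. Of 21 YAP targets 4 (19%) were lower and 0 higher in 6 of 6 pairs, against 3.86% and 2.78% of all genes. The YAP pair medians were -0.70, 0.42, -0.97, 0.02, -0.02 and -0.08. The list of 8 CDK inhibitors had a median of 0.39, with Cdkn2a and Cdkn2b lower and Cdkn2c higher in every pair, but its pair medians were below 0 in 5 of 6 pairs, at -0.53, -0.36, -0.14, -0.02, -0.29 and 0.70. Markers of endothelium summed to at most 12.7 CPM in any of the 12 libraries, and Cd4 and Ms4a1, markers of T and B cells, were below 1 CPM throughout.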

How the data were processed

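RNA was sequenced from 12 libraries (TruSeq kit, 1.3 µg of total RNA, per the labels). The authors deposited 1 table of CPM for 16383 genes, by Ensembl identifier and symbol, 32 symbols being repeated. Per the submitters' processing notes reads were placed on mm9. The aligner, counter and annotation were not given in the sources used here. Each column summed to 99.0% to 99.6% of what CPM implies, and all values (100%) came out as whole reads within 0.01, from which the totals were computed.

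Genes at 1 CPM or more in 3 or more of the 12 libraries entered a two-sided limma-trend fit (limma 3.58.1, R 4.3.3) of log2(CPM + 1) with Benjamini-Hochberg adjustment, which understates the change of low genes, with the pair as a block. Pairs come from the cell line in the labels. As a check, the deviations of paired libraries from their group means correlated at -0.275 to 0.407, above 0.1 in 2 of 6 pairs. These were 6-3 (0.407) and 13-2 (0.112), while G45-2 was at -0.054. The check thus did not divide the pairs in the way the line transcripts did. The p-values measure only the spread between these pairs. The limma and edgeR fits were tested on simulated data. Gstt1 was tested over pairs with an exact permutation test. Lists were counted, not tested. edgeR 4.0.16 was run on the recovered read counts. Other alternatives were pseudocounts of 0.5 and 2, no filter, 5 CPM, median-ratio rescaling, quantile normalization, a robust variance, no block, all 18 libraries, each pair left out, and subsets of pairs. The subset of 42-3, 6-2, 42-2 and 13-2 and edgeR on G45-2 and 6-3 were chosen after the values were seen.

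Named genes have 1 direction in 6 of 6 pairs and a mean of 5 CPM or more: the 10 of smallest p and the 10 with the largest difference in their smallest pair, each way. Of each list up to 3 members of smallest p were also eligible, and some are left out. The summed level of the lymphocyte markers is not reported here. The members and lists were chosen with earlier results of these data known. Promoters are RefSeq's (GRCm38.p6), whose build differs from that of the table. Tables used pandas 2.3.3 and numpy 2.4.6 in Python 3.11.15, exact intervals scipy 1.17.1, and plots matplotlib 3.10.9.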

Additional observations from a re-analysis of the deposited data

Results flagged for a closer look

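Among 57 gene and list summaries examined over the 6 pairs, 2 had a pair whose gap to the nearest other pair was over the share of the whole range that Dixon's test allows for 6 values, and chance flags about 1 in 20 groups. In both it was the 42-3 pair. Arhgap11a differed by 0.1235 there on the log2(CPM + 1) scale, against 1.39 (SE 0.26) over all pairs. The median of the DNA replication list was -0.9753 in 42-3 and 0.66 to 1.54 in the other 5 pairs.

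The medians of 2 lists had 1 sign in both lung pairs and the other sign in all 4 liver pairs, a difference between the sites that was not tested for the lists. The innate defence and acute phase list, 8 genes such as Lcn2 and Saa3, stood at 2.46 and 0.46 in the lung pairs and at -4.52, -1.37, -2.05 and -4.00 in the liver pairs, a lung mean minus liver mean of 4.444. The cholesterol and fatty acid synthesis list of 28 genes stood at -0.49 and -1.38 in the lung pairs and at 1.02, 0.91, 0.16 and 0.49 in the liver pairs, a difference of -1.58. Both lung pairs are among the 4 whose line transcripts did not match, so site and origin cannot be told apart.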

How the results depend on the processing

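The Gstt1 difference stayed below 0 in each alternative tried. It ranged from -3.34 to -2.36 with 1 pair left out, where 5 pairs cannot give an exact permutation p under 0.0625, and was -0.62 in G45-2 and 6-3, -3.10 in the 4 pairs with 1 library code (exact permutation p = 0.125) and -3.85 in the 3 CFa8 pairs (exact permutation p = 0.25), each p the smallest possible. Calls for shRNA 1 ranged from 0 to 44 with a pair left out, were 218 in the CFa8 pairs and 0 otherwise. The fit with no replicate block called 0 genes, so the pairing changed no call. Calls for the sites ranged from 0 to 1. In G45-2 and 6-3, where fewer genes pass the filter, list medians in limma (edgeR) were -0.00068 (-0.0070) for glutathione synthesis, -0.63 (-0.99) for CDK inhibitors, -2.32 (-2.97) for chemokines, -1.42 (-1.45) for basal genes and -0.68 (-0.69) for glycolysis. There Sesn2 was at -0.26 (-0.28) and Mmp10 at -0.024 in limma, against 0.90 and 1.50 over 6 pairs. The cause was not tested. Of 2171 alternative values of 104 named genes, 2133 kept direction and side of the threshold, 35 passed it and 3 reversed. No gene passed in the main fit, so keeping the side means failing to pass again. Genes with 1 direction in every pair cannot reverse in limma when pairs are left out. These counts are therefore no measure of how firm the differences are. Of 609 alternative list medians 599 stayed within 1 SD of pairs, a limit that allows a change of sign. Over 21 alternatives the sign differed most often for the interferon list (13), NRF2 targets (9), basal genes (8) and the integrated stress response (6). edgeR over all 6 pairs gave the NRF2 and interferon lists the other sign. Quantile normalization moved the median of all genes by 0.06 and the share higher among unadjusted calls from 43.0% to 52.3%, and gave the interferon, basal and integrated stress lists the other sign.

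A pair is 1 control and 1 shRNA 1 library of 1 line, so n is 6. In 4 pairs the library labelled shRNA 1 differed from its control in 2 or more of 7 line transcripts. For 42-2 and 13-2 these were Cdkn2a and Cdkn2b alone. In all 4 an effect of the hairpin cannot be told apart from a different origin of the cells. In the other 2 pairs, of which G45-2 differed in 1 transcript, Gstt1 was left at 54.5% and 75.4%. Levels under 0.117 CPM rest on fewer than 3 reads in each of the 12 libraries.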
